A study of Mus musculus with 2 samples.

Results

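Gadd45a, Gadd45b, Gadd45g, Cdkn1a, Cdkn1b, Ccnd1, Ccng1, Ccng2, Mdm2 and Btg2 are growth control genes, studied here in liver. Most of their products act on stress kinases, cyclin-dependent kinases (CDKs) or p53, while that of Btg2 recruits the CCR4-NOT deadenylase. The genes were chosen by symbol from the deposited count tables, with the counts and ratios of these same libraries already known. They make up 10 of the 22609 genes listed. All 10 had at least 50 reads summed over both libraries, as had 11411 genes in all, which are called measured here. Of the 2 libraries, 1 came from liver labelled Lrg1 knockout, a whole-body deletion (called the KO-labelled library here), and 1 from wild type liver, given as C57BL/6J in the protocol and as C57BL/6 in the strain label, which both libraries carry. The mice of both libraries were male and ate a diet with 45% of its calories from fat for 16 weeks, from 8 weeks of age. The deleted part of Lrg1, the number of mice behind a library, the hour of collection and any fast are not stated in the labels. Each group is a single library, so there are no replicates and no test, and each difference below is one between these libraries and not between genotypes.

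The GADD45 proteins are small acidic stress proteins that are made on demand. They bind the kinase MTK1, encoded by Map3k4, upstream of p38 and JNK, and they also bind PCNA, p21 and the CDK1 and cyclin B1 complex. In liver, Gadd45b is known for its early induction after partial hepatectomy, and Gadd45a as a p53 target. Cdkn1a (p21) and Cdkn1b (p27) inhibit CDKs, Ccnd1 encodes the D-type cyclin through which hepatocytes leave quiescence, and Ccng1, Ccng2, Mdm2 and Btg2 include further p53 targets that feed back on p53 or slow the cycle.

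Promoter windows from RefSeq (GRCm38.p6) were found for 9 of the 10 genes, with 2 for Cdkn1a, and not for Ccnd1. Of the 2 for Cdkn1a, only the upstream one is shown. The 250 bases before the annotated start are shown for the Gadd45 genes, which include the highest and the lowest log2 ratio of the 10 (Gadd45g and Gadd45a) and the one nearest 0 (Gadd45b), and for Cdkn1a and Btg2, which were both lower in the KO-labelled library. Capitals mark the E-box CACGTG in Gadd45g and Gadd45b, matches to the p53 half-site in Gadd45a and Cdkn1a, and the cAMP response element (CRE) TGACGTCA in Btg2.
Gadd45g, GRCm38.p6 chr13:51846425-51846674, plus strand: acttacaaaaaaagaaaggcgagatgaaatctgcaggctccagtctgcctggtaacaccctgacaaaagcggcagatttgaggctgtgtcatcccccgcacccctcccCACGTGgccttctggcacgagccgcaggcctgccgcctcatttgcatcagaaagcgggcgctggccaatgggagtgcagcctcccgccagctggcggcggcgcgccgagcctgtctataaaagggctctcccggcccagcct
Gadd45a, GRCm38.p6 chr6:67037408-67037657, minus strand: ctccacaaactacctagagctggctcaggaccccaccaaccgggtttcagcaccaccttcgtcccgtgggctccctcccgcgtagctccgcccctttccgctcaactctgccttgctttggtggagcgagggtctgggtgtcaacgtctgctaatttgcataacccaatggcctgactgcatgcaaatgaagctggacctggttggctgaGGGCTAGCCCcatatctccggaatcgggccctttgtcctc
Gadd45b, GRCm38.p6 chr10:80929841-80930090, plus strand: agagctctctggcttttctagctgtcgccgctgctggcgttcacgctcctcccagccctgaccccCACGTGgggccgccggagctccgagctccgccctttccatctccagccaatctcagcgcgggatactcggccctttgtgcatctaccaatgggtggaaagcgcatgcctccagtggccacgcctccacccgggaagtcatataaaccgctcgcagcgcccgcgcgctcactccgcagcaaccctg
Cdkn1a, GRCm38.p6 chr17:29090729-29090978, plus strand: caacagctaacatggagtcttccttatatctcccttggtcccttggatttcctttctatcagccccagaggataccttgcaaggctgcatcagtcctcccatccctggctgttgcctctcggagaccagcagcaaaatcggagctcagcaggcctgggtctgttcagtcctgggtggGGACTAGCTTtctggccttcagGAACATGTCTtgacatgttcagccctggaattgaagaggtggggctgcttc
Btg2, GRCm38.p6 chr1:134079156-134079405, minus strand: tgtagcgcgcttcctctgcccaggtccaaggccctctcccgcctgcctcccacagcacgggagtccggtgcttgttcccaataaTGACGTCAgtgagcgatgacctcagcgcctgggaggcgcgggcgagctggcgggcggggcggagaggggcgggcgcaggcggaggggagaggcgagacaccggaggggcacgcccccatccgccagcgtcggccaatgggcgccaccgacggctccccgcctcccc
Matches were sought on both strands in these 250 bases, for single motifs without regard to neighbours. The E-box CACGTG lay in 2 of the 10 windows, those of Gadd45b and Gadd45g, and in 6.02% of all 32851 RefSeq windows. The p53 half-site lay in 4 of 10, the windows of Gadd45a, Ccng1 and Mdm2 and the upstream window of Cdkn1a, against 7.13% of all. The other window of Cdkn1a held none of the motifs sought. The CRE lay in 1 of 10 (Btg2), against 1.55% of all. The letters CCAAT lay in 7 of 10 windows and in 33.8% of all, and TATAAA in 2 of 10, those of Gadd45b and Gadd45g, and in 12.4% of all. GTAAACA, a FOXO motif, lay in 1 of 10 (Mdm2) against 3.17%, while the GAS motif TTCNNNGAA and the D-box TTATGTAA lay in 0 of 10, against 7.02% and 0.819%. A match describes letters in the window and no binding was measured.

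The KO-labelled library held 18738397 reads in genes and the wild type library 23311906. Counts are given as reads and as CPM, reads scaled to the library size after TMM adjustment, where 1 read is worth 0.0519 CPM in the KO-labelled library and 0.0441 CPM in wild type. All intervals are 95% intervals for counting error alone, exact Poisson for a CPM and exact Clopper-Pearson for a ratio or a share. Lrg1 itself had 17572 reads in the KO-labelled library and 26958 in wild type, a log2 ratio of -0.39. The label was therefore not borne out by the Lrg1 count, and the counts do not show which part of the gene was read. Bulk liver RNA was measured, in which fewer cells of a type and less RNA per cell cannot be told apart.

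The 3 Gadd45 genes went 3 ways. Gadd45g was 11.6-fold higher in the KO-labelled library, Gadd45a was lower, at 0.180 of the wild type level, and Gadd45b was at the same level within counting error. Gadd45g had 2075 reads, 107.6 CPM (103 to 112), in the KO-labelled library and 211 reads, 9.31 CPM (8.10 to 10.7), in wild type. The ratio of 11.6 (10.02 to 13.4), a log2 ratio of 3.53, was the 4th highest of the 11411 measured genes. Gadd45a had 29 reads, 1.504 CPM (1.01 to 2.16), in the KO-labelled library and 189 reads, 8.34 CPM (7.20 to 9.62), in wild type. Its ratio of 0.180 (0.118 to 0.267), a log2 ratio of -2.45, was the 34th lowest of all measured genes. Gadd45b, known as an early response gene, had 48 reads in the KO-labelled library and 57 in wild type, or 2.49 CPM (1.84 to 3.30) and 2.52 CPM (1.91 to 3.26). The ratio was 0.989 with a wide interval of 0.659 to 1.48, and its log2 value of -0.01 was 0.07 under scaling by total count. With so few reads, a difference inside that interval was not detectable at this depth.

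As a family, the Gadd45 genes summed to 2152 reads, 111.6 CPM, in the KO-labelled library and to 457 reads, 20.2 CPM, in wild type. The family's makeup differed as well. Gadd45g took 96.4% (95.5 to 97.2) of the family's reads in the KO-labelled library and 46.2% (41.5 to 50.9) in wild type. Gadd45a took 1.35% (0.904 to 1.93) in the KO-labelled library and 41.4% (36.8 to 46.03) in wild type. Gadd45b took 2.23% (1.65 to 2.95) in the KO-labelled library and 12.5% (9.59 to 15.9) in wild type. Within a library, scaling cancels: there were 71.6 Gadd45g reads per Gadd45a read in the KO-labelled library and 1.12 in wild type. In GENCODE M21, Gadd45a (ENSMUSG00000036390.8, chromosome 6) overlaps E230016M11Rik on the opposite strand, which had 22 reads in the KO-labelled library and 18 in wild type. No source used here gives the strand setting of the counting, so reads of the 2 genes may not be fully separated. Gadd45b (chromosome 10) and Gadd45g (chromosome 13) overlap no annotated gene, and each of the 3 has 4 exons in its longest coding transcript.

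**Figure D1:**
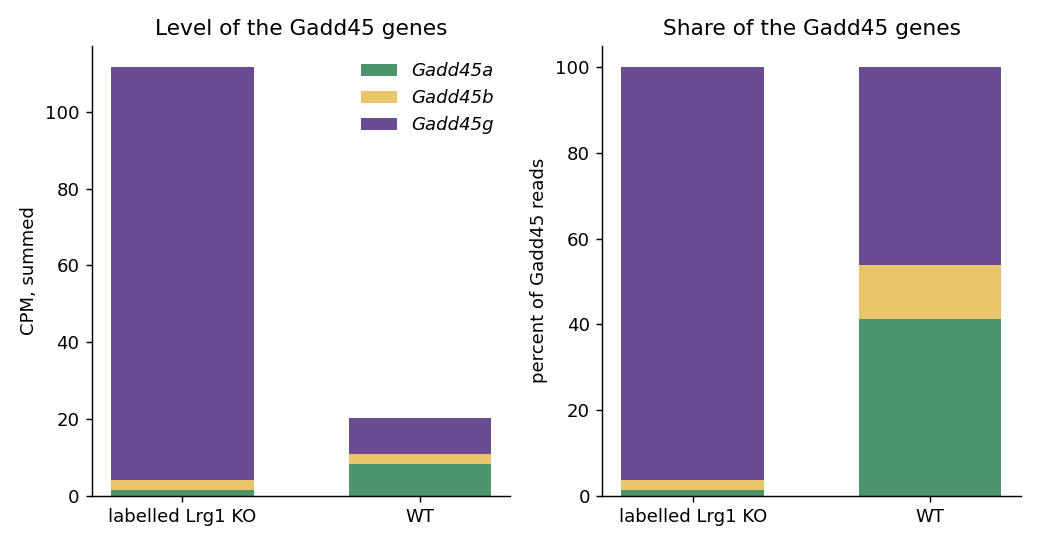
Stacked bars of the 3 Gadd45 genes, with summed CPM on the left and the share of their reads in percent on the right, for the KO-labelled library and the wild type library (1 each). The bar of the KO-labelled library reaches 111.6 CPM and is 96.4% Gadd45g, and that of wild type reaches 20.2 CPM with 46.2% Gadd45g and 41.4% Gadd45a.

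Among genes with at least 300 reads, those with log2 ratios nearest to that of Gadd45g were Hsd3b5 (3.70), a steroid dehydrogenase of male liver, Socs2 (3.23), a feedback inhibitor of growth hormone signalling, the pseudogene Serpina4-ps1 (2.85) and the homeobox gene Hhex (2.77). Likeness here means the ratio between 2 libraries and nothing more.

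Of the CDK inhibitors, Cdkn1a was lower in the KO-labelled library and Cdkn1b was near its wild type level. Cdkn1a had 891 reads, 46.2 CPM (43.2 to 49.3), in the KO-labelled library and 1946 reads, 85.9 CPM (82.1 to 89.8), in wild type. The ratio was 0.538 (0.496 to 0.583), a log2 ratio of -0.89, at percentile 3.21 of measured genes. Cdkn1b had 425 reads, 22.0 CPM (19.99 to 24.2), in the KO-labelled library and 458 reads, 20.2 CPM (18.4 to 22.2), in wild type. Its ratio of 1.09 had an interval, 0.953 to 1.25, that included no difference. There were 2.10 Cdkn1a reads per Cdkn1b read in the KO-labelled library and 4.25 in wild type, so the ratio between the inhibitors was 0.493 of that in wild type (0.422 to 0.577). Other CDK inhibitors were scarce: 2 of the 6 listed were measured, Cdkn2c (p18) with 47 reads in the KO-labelled library against 76 in wild type, and Cdkn1c (p57) with 35 in the KO-labelled library against 47 in wild type, and both intervals included no difference. In GENCODE M21, Cdkn1a (chromosome 17, ENSMUSG00000023067.14) holds AC167363.2 on the opposite strand, whose reads were not analysed here.

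The 3 cyclins also parted. Ccnd1 and Ccng1 were lower in the KO-labelled library, and Ccng2 was higher. Ccnd1, whose protein activates CDK4 and CDK6 in G1, had 445 reads, 23.1 CPM (20.98 to 25.3), in the KO-labelled library and 1023 reads, 45.2 CPM (42.4 to 48.0), in wild type. The ratio was 0.511 (0.456 to 0.572) and the log2 ratio -0.97. Ccng1, which encodes a p53-induced cyclin that binds the phosphatase PP2A, had 995 reads, 51.6 CPM (48.4 to 54.9), in the KO-labelled library and 1875 reads, 82.8 CPM (79.1 to 86.6), in wild type, a ratio of 0.623 (0.577 to 0.674). Ccng2, whose product is linked to cell cycle arrest and whose gene is a known FOXO target, had 553 reads, 28.7 CPM (26.3 to 31.2), in the KO-labelled library and 425 reads, 18.8 CPM (17.0 to 20.6), in wild type. That is a ratio of 1.53 (1.34 to 1.74), at percentile 94.7 of measured genes. The intervals of the paralogs Ccng1 and Ccng2 therefore lay on opposite sides of no difference. Their read ratio, Ccng1 to Ccng2, was 1.80 in the KO-labelled library and 4.41 in wild type, or 0.408 of the wild type value (0.351 to 0.474). Ccnd1 (chromosome 7) overlaps the gene listed as Oraov1 on the opposite strand, which had 266 reads in the KO-labelled library and 311 in wild type, a log2 ratio of 0.01.

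Mdm2, the ubiquitin ligase that p53 induces and that degrades p53, was at the same level in both libraries within counting error. It had 765 reads, 39.7 CPM (36.9 to 42.6), in the KO-labelled library and 873 reads, 38.5 CPM (36.02 to 41.2), in wild type, a ratio of 1.03 (0.933 to 1.14). The p53 targets among the 10 genes thus differed among themselves: Gadd45a, Cdkn1a, Ccng1 and Btg2 were lower and Mdm2 was not. There were 1.16 Cdkn1a reads per Mdm2 read in the KO-labelled library and 2.23 in wild type, so that the ratio in the KO-labelled library was 0.523 (0.460 to 0.594) of that in wild type.

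Btg2, an antiproliferative gene that is both a p53 target and an immediate early gene and whose protein recruits the CCR4-NOT deadenylase, had 354 reads in the KO-labelled library and 827 in wild type. Its level was 18.4 CPM (16.5 to 20.4) in the KO-labelled library and 36.5 CPM (34.1 to 39.1) in wild type. The ratio of 0.503 (0.443 to 0.570), a log2 ratio of -0.99, fell just short of the 2-fold threshold used below.

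**Figure D2:**
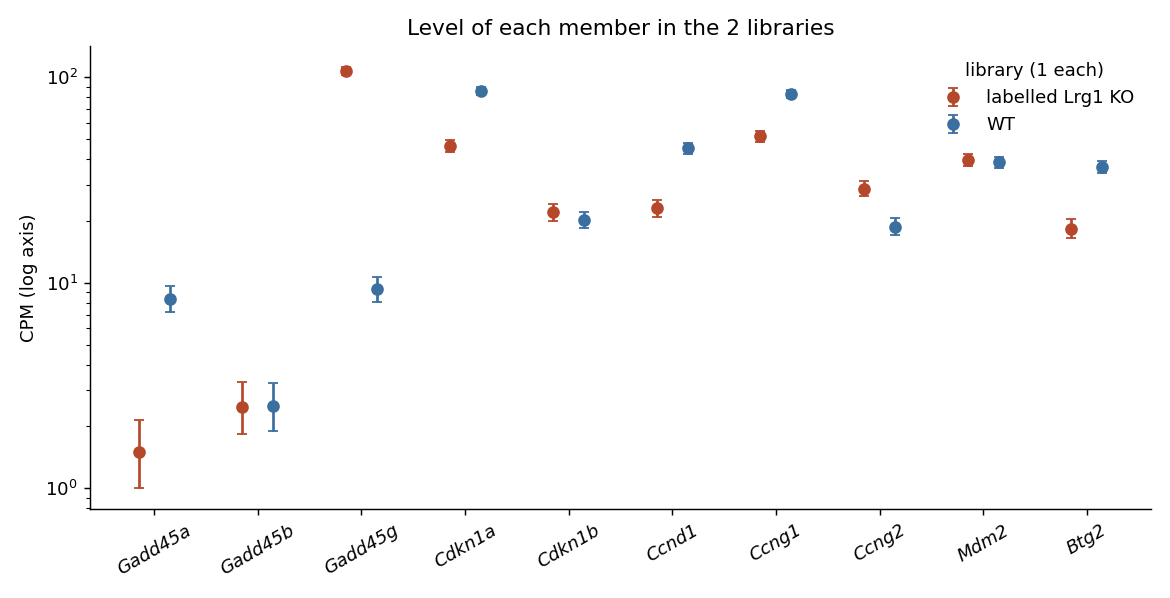
CPM of each gene on a log axis, with the KO-labelled library left of wild type (1 library each) and bars for the exact 95% Poisson interval of counting error. Gadd45g stands at 107.6 CPM in the KO-labelled library against 9.31 CPM in wild type, Gadd45a at 1.504 CPM against 8.34 CPM in wild type, while the intervals of Gadd45b, Cdkn1b and Mdm2 overlap between the libraries.

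Over all 10 genes, 1 was at least 2-fold higher in the KO-labelled library (Gadd45g) and 1 at least 2-fold lower (Gadd45a), where 1.71% and 2.49% of all measured genes were, or 4.2% in either direction. At 1.5-fold, 2 genes were higher (Gadd45g and Ccng2) and 5 lower (Gadd45a, Btg2, Ccnd1, Cdkn1a and Ccng1), against 5.89% and 6.91% of all measured genes. The counting interval of the ratio did not hold 1 for 7 of the 10 and for 48.6% of measured genes, so such an interval is common at this depth and does not set a gene apart. The median log2 ratio was -0.35 over the 10 genes and -0.01 over all measured genes, with 4 of 10 genes and 48.4% of measured genes above 0. These counts are a description, since the genes were listed with the same contrast in view. None of the 10 lay just past the 2-fold threshold, and just short of it were Btg2 (-0.99), Ccnd1 (-0.97) and Cdkn1a (-0.89). Thinning the deeper wild type library brought Btg2 to -1.02 and the number of genes 2-fold lower to 2.

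Among genes with 50 reads or more and under 200, 10.3% were 2-fold apart in either direction, and Gadd45b, the 1 gene of that depth, was not. Of genes with 200 reads or more and under 1000, 3.16% were 2-fold apart, and Gadd45a was among the 3 here. Of those with 1000 reads or more and under 5000, 2.34% were, and Gadd45g was among the 6. From 5000 reads upward the share was 3.38% with 0 of the 10 genes there. These ranges count reads summed over both libraries. Gadd45g therefore entered its range mostly through the KO-labelled library, and Gadd45a mostly through wild type. With 29 reads in the KO-labelled library and 189 in wild type, Gadd45a lay near the 200-read edge. The shares describe the ranges and do not set these differences apart.

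**Figure D3:**
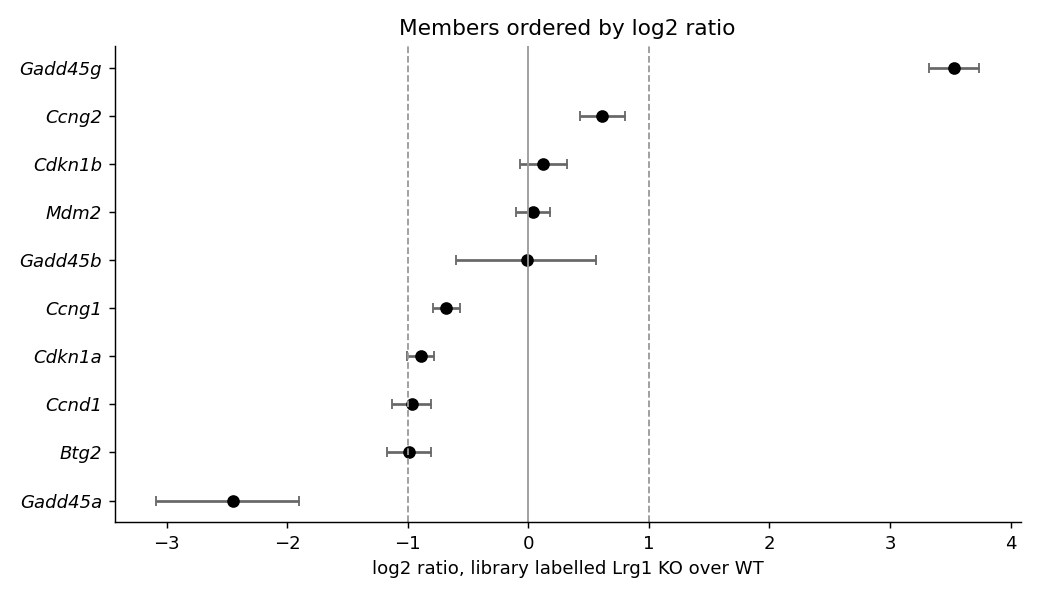
Log2 ratio of the KO-labelled library to wild type for each gene (points), with exact 95% intervals for counting error (bars) and 2-fold thresholds (dashed lines). Gadd45g at 3.53 and Gadd45a at -2.45 lie outside the dashed lines, Btg2, Ccnd1 and Cdkn1a lie at or near the lower one, and the bars of Cdkn1b, Mdm2 and Gadd45b cross 0.

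**Figure D4:**
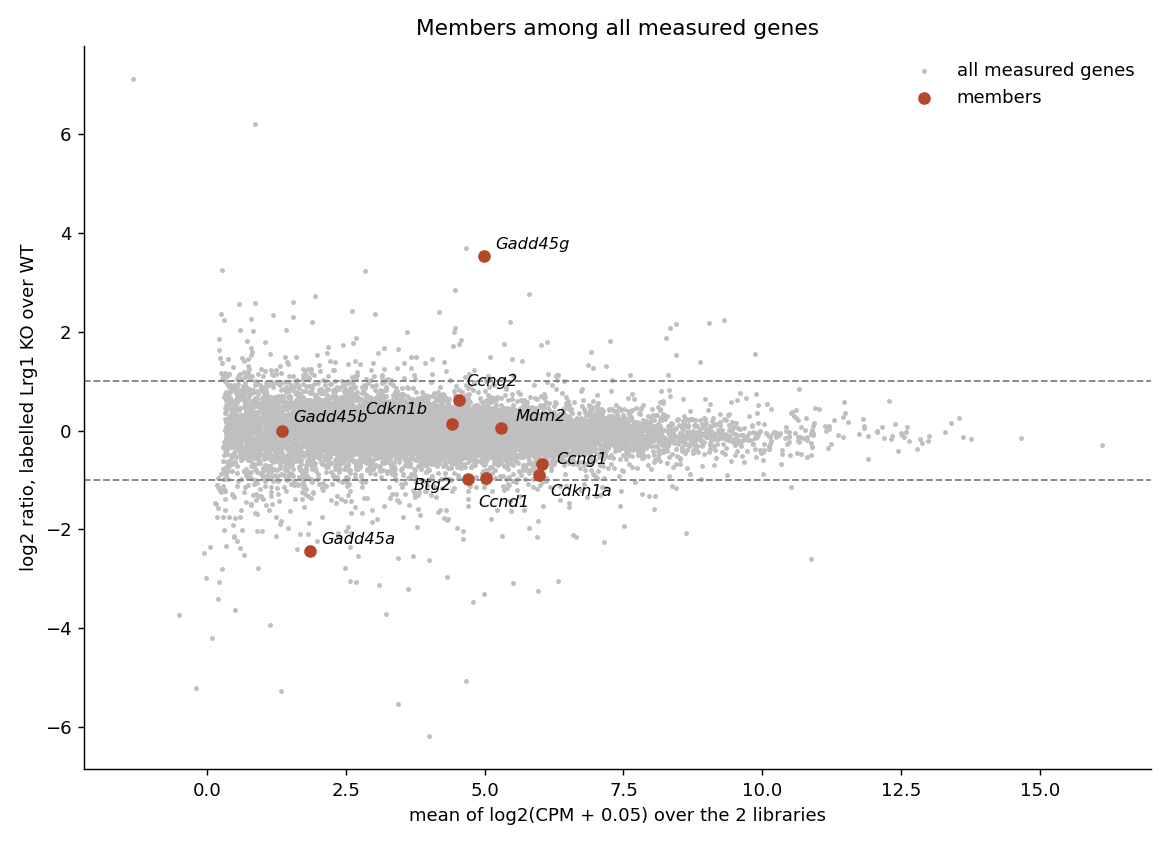
Log2 ratio against mean log2 level for the 11411 measured genes (grey), with the 10 genes in red and 2-fold thresholds dashed. Gadd45g, the 4th highest ratio of all, stands far above the cloud at its level, and Gadd45a below it.

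Levels of different genes are compared as CPM per kilobase of the longest coding transcript in GENCODE M21. In the KO-labelled library, Gadd45g came first at 100.5 CPM per kilobase, followed by Cdkn1a (22.2), Ccng1 (14.7), Mdm2 (12.6), Ccng2 (10.2), Btg2 (6.69), Ccnd1 (6.17), Cdkn1b (4.84), Gadd45b (1.94) and Gadd45a (1.23). In wild type, Cdkn1a came first at 41.3 CPM per kilobase, followed by Ccng1 (23.6), Btg2 (13.3), Mdm2 (12.3), Ccnd1 (12.1), Gadd45g (8.70), Gadd45a (6.82), Ccng2 (6.68), Cdkn1b (4.44) and Gadd45b (1.96). Counting intervals of neighbours overlapped for Btg2 with Ccnd1 and for Gadd45b with Gadd45a in the KO-labelled library. In wild type they overlapped for Btg2 with Mdm2, Mdm2 with Ccnd1, Gadd45g with Gadd45a, and Gadd45a with Ccng2. Gadd45g was thus 1st in the KO-labelled library and 6th in wild type, and Gadd45a was last in the KO-labelled library and 7th in wild type. Without division by length, the reads of the 10 genes summed to 341.2 CPM in the KO-labelled library and 348.0 CPM in wild type. These sums give long transcripts more weight and are not a summed level per kilobase. Gadd45g took 31.5% of these reads in the KO-labelled library and 2.68% in wild type.

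Companion genes of the same pathways were listed with earlier results known. Over all measured genes 48.4% were higher in the KO-labelled library, 1.71% were higher by 2-fold or more and 2.49% lower by as much, and no list's count was tested against these shares. Of the 30 other p53 targets listed, 26 were measured, with 11 higher and 15 lower in the KO-labelled library and a median log2 ratio of -0.13, against -0.01 over all measured genes. At least 2-fold lower were 3 of them: the secreted stress hormone Gdf15 (219 reads in the KO-labelled library and 1189 in wild type, log2 ratio -2.21), the receptor Eda2r (15 reads in the KO-labelled library and 61 in wild type, -1.76) and Phlda3, an inhibitor of AKT (23 reads in the KO-labelled library and 69 in wild type, -1.33). Eda2r and Phlda3 lay among the genes with 50 reads or more and under 200, of which 10.3% were 2-fold apart in either direction. The 1 listed p53 target that was at least 2-fold higher was the kinase gene Plk3 (2180 reads in the KO-labelled library and 1262 in wild type, 1.02), named after its value was seen. Of 15 measured genes for p53 and its regulators, 12 were higher and 3 lower, with a median of 0.13 and 0 of them 2-fold apart. The deacetylase Sirt1, at 0.68, the checkpoint kinase Chek2, at 0.61 with an interval of its ratio that reached below 1, and the p53 phosphatase Ppm1d, at 0.48, were farthest from 0.

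The list of G1 genes holds both promoters and inhibitors of G1 entry. Of 19 measured G1 cyclins, kinases and pocket proteins, 15 were higher and 4 lower in the KO-labelled library, with a median of 0.19, where 48.4% of all measured genes were higher. At least 2-fold higher were 2 of them, against 1.71% of all measured genes. Myc, a growth-promoting transcription factor, had 199 reads in the KO-labelled library and 113 in wild type (1.05), and E2f2 had 33 in the KO-labelled library and 19 in wild type (1.01). E2f2 was just past the threshold, with an interval of its ratio of 1.13 to 3.80, and E2f5, a repressor-type E2F, was just under it at 0.998. Of 13 measured S phase genes 6 were higher and 7 lower, with the helicase subunits Mcm6 at 1.16 and Mcm4 at 0.81 and the licensing factor Cdt1 at 0.68. Their median of -0.01 turned to 0.07 under scaling by total count. Both E2f2 and Mcm6 lay among the genes with 50 reads or more and under 200. Of those, 10.3% were 2-fold apart in either direction. Most mitotic genes were too scarce to measure, as 3 of the 20 listed passed: the centromere histone Cenpa (0.58) and the proliferation marker Mki67 (0.33), whose intervals both included no difference, and Wee1. Wee1, the kinase that holds CDK1 inactive and a known clock output, had 46 reads in the KO-labelled library and 241 in wild type (-2.14).

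Partners of the GADD45 proteins and cyclins G are read against the 4.2% of all measured genes that were 2-fold apart in either direction. Among genes with 50 reads or more and under 200, which include Map2k6 and Mbd4 below, 10.3% were. Of 17 measured genes for MTK1, p38, JNK and their regulators, 8 were higher and 9 lower, with a median of -0.001 that turned to 0.08 under scaling by total count. The 1 gene 2-fold apart was the p38 kinase kinase Map2k6, with 19 reads in the KO-labelled library and 64 in wild type (-1.49), ahead of Map3k5 (-0.66) and Map2k3 (-0.55). Of 15 measured genes for DNA demethylation and excision repair, 10 were higher and 5 lower, with a median of 0.04. The glycosylase Mbd4 (20 reads in the KO-labelled library and 53 in wild type, -1.15) was 2-fold lower, and Smug1 (0.11) and Ercc1 (0.10) had intervals that included no difference. Of 13 measured genes for PP2A and related factors listed with the cyclins G, 7 were higher and 6 lower, with a median of 0.07 and 0 of them 2-fold apart. The phosphatase's regulatory subunits Ppp2r5e and Ppp2r5a went opposite ways, at -0.67 and 0.38, and the homeodomain factor Cux1 was at -0.42.

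The next lists stand beside all measured genes, of which 48.4% were higher and 4.2% were 2-fold apart in either direction. The relatives of Btg2 went both ways. Tob1 was at 0.81, with 3966 reads in the KO-labelled library and 2665 in wild type, and Btg1 at 0.65, whereas Tob2 was at -0.69. Among 15 measured BTG, TOB and CCR4-NOT genes 10 were higher and 5 lower, with a median of 0.10 and 0 of them 2-fold apart. Among 15 measured FOXO factors and other FOXO growth control targets 7 were higher and 8 lower, with a median of -0.11. The repressor Bcl6 (-1.12), the thioredoxin inhibitor Txnip (-0.65) and Foxo3 (-0.61) lay farthest from 0, all on the opposite side from Ccng2. The 7 higher genes lay on the same side as Ccng2. Genes for the turnover of CDK inhibitors, D cyclins and p53 had 7 of 17 higher and 10 lower, with a median of -0.15. Fbxo31, which targets cyclin D1 for degradation, was at -0.81, the deubiquitinase Usp28 at 0.77 and the ubiquitin ligase subunit Fbxw7 at 0.64.

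**Figure D5:**
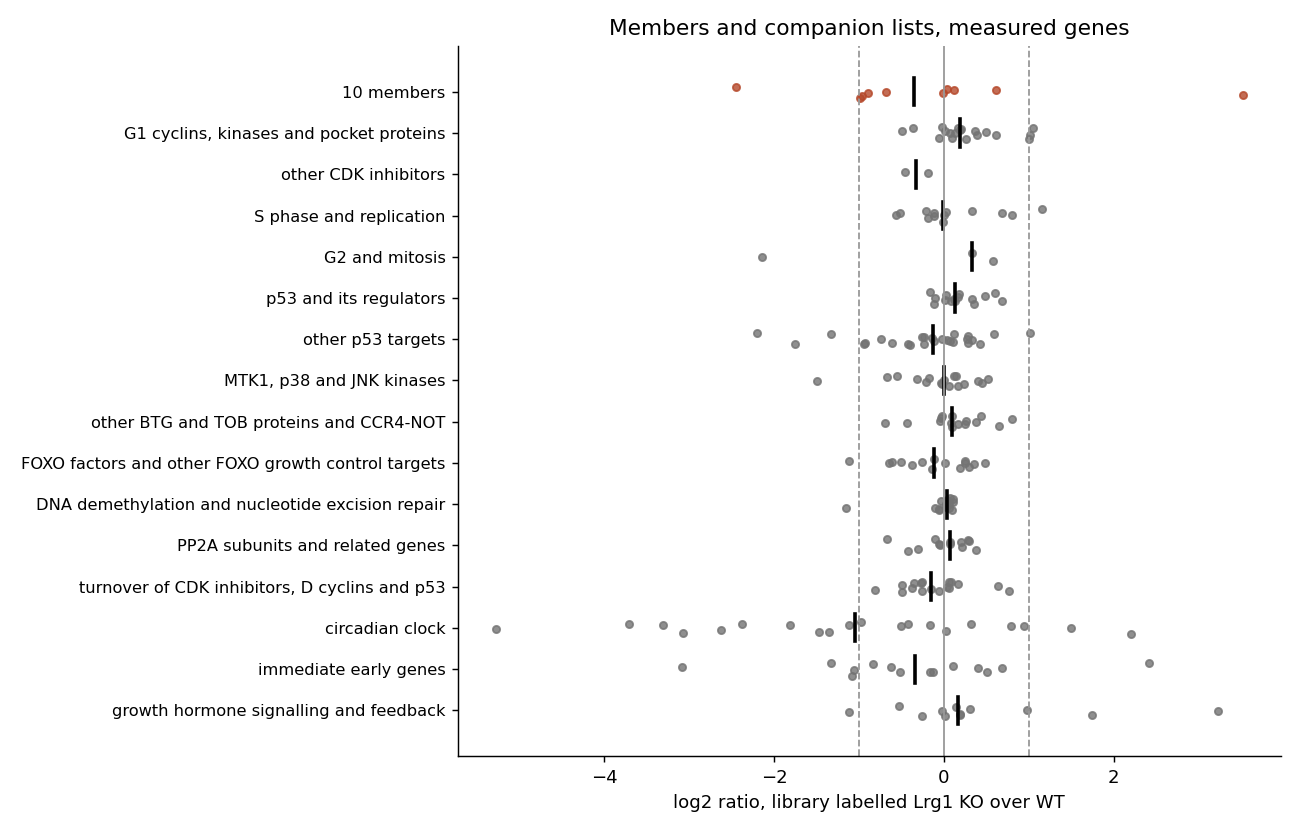
Log2 ratio of the KO-labelled library to wild type for the 10 genes (red) and the measured genes of 15 companion lists (grey), with medians as black bars and 2-fold thresholds dashed. The 10 genes spread from -2.45 (Gadd45a) to 3.53 (Gadd45g), wider than the G1, p53 regulator, BTG and TOB or PP2A lists. Without Gadd45a and Gadd45g they lie between -0.99 and 0.61. The clock list spreads wider, from -5.28 to 2.21, and lies furthest to the left with a median of -1.04.

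Other gene groups are given beside the shares over all measured genes. Of these, 51.6% were lower, 48.4% higher, 2.49% at least 2-fold lower and 1.71% at least 2-fold higher. Circadian clock genes, which control Wee1 and Cdkn1a among others, had 14 of 20 lower and 6 higher in the KO-labelled library, with a median of -1.04. Of the 20, 10 were at least 2-fold lower and 2 at least 2-fold higher, Npas2 at 2.21 and Arntl at 1.49. The clock outputs Ciart (listed as Gm129, -5.28), Usp2 (-3.71) and Dbp (-3.31) lay farthest from 0. Immediate early genes, to which Btg2 and Gadd45b are counted, had 9 of 14 lower and a median of -0.34, with Egr1 at -3.09, Junb at -1.32 and Nr4a1 at 2.42. Growth hormone signalling genes had 8 of 12 higher and a median of 0.17, with Socs2 at 3.23, Cish, another feedback gene, at 1.74 and Bcl6 at -1.12. The part of these groups in the values of the 10 genes was not tested.

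Cell type markers are given beside all measured genes, of which 48.4% were higher and 51.6% lower in the KO-labelled library. At least 2-fold higher were 1.71% of measured genes, and at least 2-fold lower 2.49%. Among genes with 50 reads or more and under 200, 10.3% were 2-fold apart in either direction. Hepatocyte markers were abundant in both libraries. The 10 hepatocyte markers summed to 100771 CPM in the KO-labelled library and 115358 CPM in wild type, with 3 higher, 7 lower and 0 of them 2-fold apart. The 10 sinusoidal endothelial markers summed to 393.4 CPM in the KO-labelled library and 268.8 CPM in wild type, with 9 higher and 1 lower, and 2 at least 2-fold higher. The 10 Kupffer cell and macrophage markers summed to 416.2 CPM in the KO-labelled library and 553.0 CPM in wild type, with 1 higher and 9 lower, and 3 at least 2-fold lower. Stellate cell markers summed to 404.5 CPM in the KO-labelled library and 410.2 CPM in wild type. Of the 9 measured, 6 were higher and 3 lower, and 1 was at least 2-fold lower. Cholangiocyte markers summed to 41.2 CPM in the KO-labelled library and 42.8 CPM in wild type. T and NK cell, B cell, neutrophil and muscle markers were low, at 4.04, 2.75, 4.46 and 1.504 CPM in the KO-labelled library and 3.27, 1.99, 3.93 and 1.24 CPM in wild type. In the T and NK cell, B cell, adipocyte, erythroid and acinar lists 1 gene each was measured, and in the muscle list 0. The sums of these lists therefore do not describe a cell type. Adipocyte markers summed to 5.60 CPM in the KO-labelled library and 31.4 CPM in wild type, with Plin1, Lep and Retn at 0 in both. Erythroid markers summed to 135.3 CPM in the KO-labelled library and 111.2 CPM in wild type with the 4 globin genes listed at 0. Acinar markers summed to 23.1 CPM in the KO-labelled library and 16.7 CPM in wild type with Cpa1, Prss2, Pnlip and Amy2a5 at 0 in both. The part of these cells in the values of the 10 genes was not tested.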

How the data were processed

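Liver RNA was measured in 2 libraries by poly(A)-selected, stranded RNA sequencing with reads of 50 bases, from about 500 ng of total RNA per the labels. The authors deposited whole-number counts of reads for each gene symbol, without normalization. Per the submitters' processing notes, bcl2fastq, TopHat2, HTSeq and the build mm9 were used, and no source used here states versions, strand setting or annotation. Reads outside genes (14.4% of uniquely aligned reads in the KO-labelled library, 14.0% in wild type) and in more than 1 gene (0.234% in the KO-labelled library, 0.231% in wild type) stayed out of library sizes.

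Counts were scaled by TMM (edgeR 4.0.16, R 4.3.3; factors 1.03 for the KO-labelled library and 0.972 for wild type). Log2 ratios used a prior count of 0.5, while ratios and intervals used counts without it. A floor of 3 counts stands at 0.156 CPM in the KO-labelled library and 0.132 CPM in wild type. The protocol describes no molecular identifiers, so reads are not independent molecules, and intervals and floors cover counting error only. Steps were tested on simulated data. Other steps used Python 3.11.15 (scipy 1.17.1, numpy 2.4.6, matplotlib 3.10.9, pandas 2.3.3).

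The 10 genes, the 15 companion lists and the within-library ratios were chosen with earlier results of these data known. Named genes were the 10, Lrg1, and in each list the 3 measured genes farthest from 0. The 4 genes of at least 300 reads nearest to the most different gene were also named. Plk3, Npas2, Arntl and the overlapping genes E230016M11Rik and Oraov1 were named after their values were seen. Older symbols were matched through RefSeq synonyms. GENCODE M21 (GRCm38) gave lengths and overlaps, and RefSeq (GRCm38.p6) the promoters; no coordinates were carried over to mm9. Alternatives tried were DESeq2 1.42.0 size factors, total counts with and without the top 20 genes, thinning of the wild type library, thresholds of 1.5-fold and 3-fold, a prior count of 2, and filters from 1, 10 and 200 reads.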

Additional observations from a re-analysis of the deposited data

Results flagged for a closer look

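Alignments that were not unique, which enter no gene count, numbered 1.62 per read in genes in the KO-labelled library and 1.18 in wild type. They drew attention as a signal in lines the comparisons do not use, above its level in wild type. Which genes they came from was not analysed here.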

How the results depend on the processing

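Across the scalings, thinning and the prior count of 2, all 50 recomputed log2 ratios of the 10 genes stayed inside their counting intervals. Gadd45g ranged over 3.52 to 3.61, Gadd45a over -2.45 to -2.37, and Gadd45b, with -0.02 to 0.07, has no settled sign. The number of the 10 genes 2-fold lower was 2 after thinning, when Btg2 passed, and at 1.5-fold it was 5, with 2 higher. Over all measured genes, those 2-fold higher and lower numbered 461 and 519 from 10 reads, 101 and 166 from 200 reads (where Gadd45b dropped out), and 1246 and 1379 without a filter, against 195 and 284. They numbered 672 and 788 at 1.5-fold and 52 and 105 at 3-fold, by construction. With the union of exons as length, 4 genes changed place in the order of levels in the KO-labelled library and 5 in wild type, since the length of some gene models differs. Of 119 recomputed list medians, 8 left the counting interval of the member nearest the median, and the mitotic median from 200 reads rests on Wee1 alone (-2.14). The medians of the S phase and of the MTK1, p38 and JNK lists changed sign with scaling. No paired analysis was possible because there is 1 library per group, and for the same reason no replicate could be left out. Depth limits Gadd45b and the 29 reads of Gadd45a most.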
